A study of Mus musculus with 21 samples.

Results

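Cultured mouse Sertoli cells were compared with cultured smooth muscle cells of vascular (VSMC), intestinal (ISMC) and tracheal (TSMC) origin, and the genes that went the same way against all 3 smooth muscle groups were collected. Sertoli cells line the seminiferous tubule of the testis. All 4 groups carried the strain label C57BL/6J and the label primary isolated cells, were untreated, and grew in DMEM/F12 medium with 10% fetal bovine serum. Each group had 3 libraries, so 12 of the 21 libraries of the series were used, and the remaining groups of its 7 (peritubular myoid, Leydig and germ cells) serve only as named points of reference. Total RNA was extracted and sequenced, and the deposited values are in FPKM, fragment counts scaled to transcript length and to the mapped fragments of the library. A gene was tested when it had at least 1 FPKM in at least 3 of the 12 libraries, which held for 12001 of 19285 genes with values. By the submitters' design text, testicular cells were isolated by cited methods, while the smooth muscle-like cells came from a company, so the tissue and the supplier cannot be told apart here.

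Sertoli cells are the epithelial nurse cells of the testis. They are specified by Sry and Sox9 and respond to follicle-stimulating hormone and testosterone. They form the blood-testis barrier through tight junctions and feed lactate to germ cells. They also secrete carrier proteins, protease inhibitors and growth factors into the tubule. Smooth muscle cells wrap hollow organs and contract through smooth muscle actin and myosin under the control of serum response factor and myocardin, and in culture they lay down interstitial collagen, fibronectin and elastic fibre proteins.

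The smallest steps between FPKM values gave a depth of 20900000 to 22300000 fragments per library, and 10936 to 11445 genes per library had at least 1 FPKM. Sertoli replicate 2 stood apart from the other Sertoli libraries. Its Pearson r of log2(FPKM + 1) across tested genes was 0.963 with replicate 1 and 0.973 with replicate 3, against 0.997 between replicates 1 and 3. In 508 tested genes replicate 2 lay more than 1 log2 unit from both others, so values are given per library in the order of replicates 1, 2 and 3, and results that rest on replicate 2 are also given without it. The FPKM of a library summed to 522102 to 532778 in Sertoli and to 423593 to 448311 in smooth muscle, and the median log2 fold change of all tested genes was 0.16 against VSMC, 0.11 against ISMC and 0.096 against TSMC. The labels do not say whether replicates came from different cultures or animals, and the p-values reflect only how far these libraries spread, which may be technical.

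The labels were first checked against defining markers, between Sertoli and smooth muscle libraries only. The Sertoli libraries held Sox9, the transcription factor that specifies Sertoli cells, at 56.8, 43.0 and 47.3 FPKM, against 0.64 to 2.25 FPKM in the 9 smooth muscle libraries. Dmrt1, which maintains Sertoli identity after birth, had 21.3, 21.7 and 17.9 FPKM in Sertoli libraries, against 0 to 0.07 FPKM in the 9 smooth muscle libraries. Fshr, the receptor of follicle-stimulating hormone, was low throughout, with 2.66, 1.15 and 1.47 FPKM in Sertoli libraries, against 0 to 0.02 FPKM in the 9 smooth muscle libraries. Amh, the hormone of immature Sertoli cells, did not reach the filter, with 0.61, 0.62 and 0.51 FPKM in Sertoli libraries, against 0.06 to 0.18 FPKM in the 9 smooth muscle libraries. All 4 groups carried the smooth muscle actin Acta2 at high levels, and its highest values were in the Sertoli libraries.

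Markers of other cell types were also present in some groups, and their part in the results was not tested. The summed FPKM of 14 Leydig markers was 179 to 211 in Sertoli libraries, against 22.2 to 25.4 FPKM in VSMC, 23.5 to 27.5 FPKM in ISMC and 46.6 to 54.9 FPKM in TSMC, while the Leydig libraries of the series had 2006 to 8190. The peritubular myoid libraries of the series had 2575 to 5339. Of the 14 genes 8 were tested, and 7 of them rose against all 3 smooth muscle groups, beside 9.28% of all tested genes. Cyp17a1, Hsd17b3 and Lhcgr, below the filter, were listed at 0 in all 3 Sertoli libraries. The summed FPKM of 14 macrophage markers was 10.1 to 54.6 in Sertoli libraries, against 252 to 279 FPKM in VSMC, 532 to 725 FPKM in ISMC and 11.96 to 14.2 FPKM in TSMC. For 13 endothelial markers the sums were 103 to 109 in Sertoli libraries, against 323 to 338 FPKM in VSMC, 312 to 320 FPKM in ISMC and 105 to 108 FPKM in TSMC. The glial gene Sox10 had 0.04, 0.04 and 0 FPKM in Sertoli libraries, against 0 to 0.06 FPKM in VSMC, 17.2 to 22.4 FPKM in ISMC and 26.6 to 27.3 FPKM in TSMC. The germ cell marker Ddx4 had 0.27, 0.12 and 0.21 FPKM in Sertoli libraries. In bulk RNA, fewer cells of a type and less RNA per cell cannot be told apart.

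**Figure D1:**
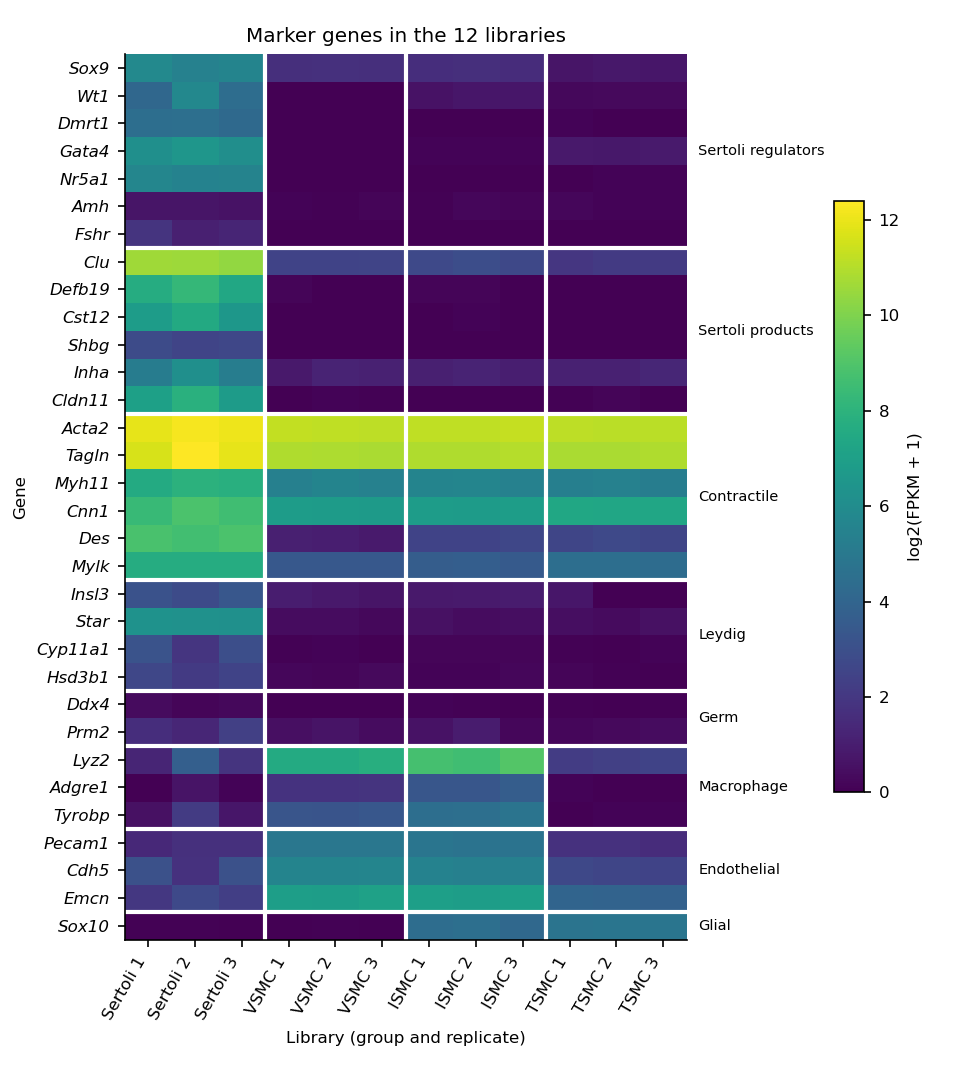
Log2(FPKM + 1) of marker genes (rows, grouped by the cell type they mark) in each of the 12 libraries (columns, Sertoli first). Sertoli products such as Clu (1336 to 1598 FPKM) are bright in the 3 Sertoli columns. Among contractile genes Acta2 is bright in all columns, while Des and Mylk are much brighter in the Sertoli columns. Macrophage and endothelial markers are brightest in VSMC and ISMC.

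Each comparison was a limma contrast on log2(FPKM + 1), and a gene was called, that is, rose or fell, where its Benjamini-Hochberg adjusted p was under 0.05 and its log2 fold change was 1 or more in size. Against VSMC, 1655 genes were higher in Sertoli (13.8% of those tested) and 1099 lower (9.16%). Against ISMC, 1371 were higher (11.4%) and 1211 lower (10.1%), and against TSMC, 1439 were higher (12%) and 1190 lower (9.92%). The 3 comparisons share the same Sertoli libraries, so they are not independent. In the same direction against all 3 groups, 1114 genes rose in Sertoli (9.28%) and 760 fell (6.33%). Without Sertoli replicate 2 these counts were 1076 and 768, of which 972 and 696 were the same genes. Of the 1114, 313 reached 1 FPKM in no smooth muscle library, and of the 760, 188 reached it in no Sertoli library. Among all tested genes 424 reached 1 FPKM in no smooth muscle library and 675 in no Sertoli library. Passing the filter through 1 side alone favours a call in that direction, though not all such genes were called. Most lists below give the number of such members beside the count. Among calls against VSMC 60.1% were higher in Sertoli, and this share was 46.9% with quantile-normalized values and 48.6% with libraries scaled by their median log-ratio.

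**Figure D2:**
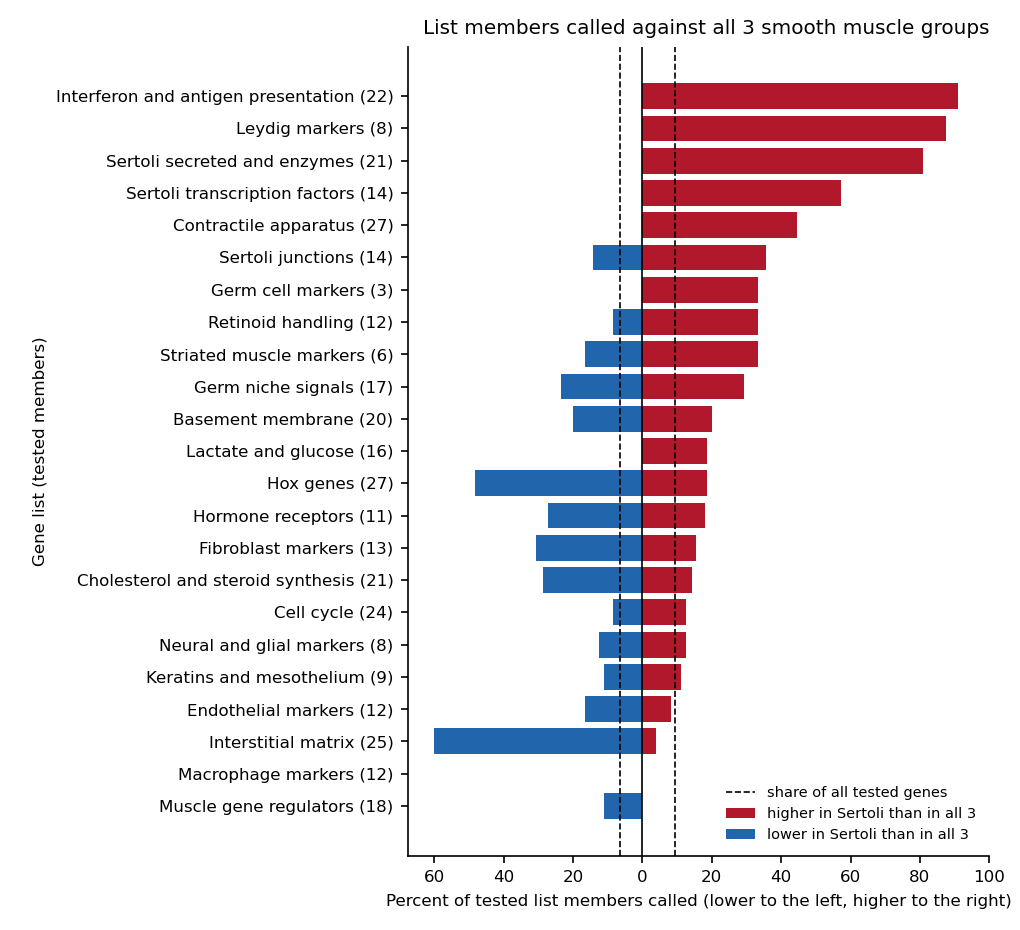
Share of the tested members of each gene list that was called in the same direction against VSMC, ISMC and TSMC, higher in Sertoli to the right and lower to the left, in percent. Dashed lines mark the shares among all tested genes, 9.28% higher and 6.33% lower. Interferon genes (20 of 22 higher) and interstitial matrix genes (15 of 25 lower) form the longest bars to each side.

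Most secreted products and enzymes of Sertoli cells rose. Of 23 listed genes 21 were tested and 17 rose against all 3 groups, beside 9.28% of all tested genes, with 10 of the tested members at 1 FPKM only in Sertoli libraries. Without Sertoli replicate 2 the count was 15. The summed FPKM of the 23 genes was 2516 to 3641 in Sertoli libraries. It was 2153 to 4352 in the peritubular myoid libraries of the series and 798 to 1493 in its Leydig libraries. The sum thus did not set Sertoli apart from peritubular myoid libraries. Median log2 fold changes of the tested members were 3.62, 3.59 and 3.70 against VSMC, ISMC and TSMC. Clu, the secreted chaperone clusterin (chr14:65968483-65981548, plus strand, mm10), had 1598, 1542 and 1336 FPKM in the Sertoli libraries, against 4.67, 4.57 and 4.78 FPKM in VSMC, 5.59, 6.58 and 5.44 FPKM in ISMC and 2.83, 3.25 and 3.31 FPKM in TSMC. Every Sertoli value lay far above every smooth muscle value. Clu gave log2 fold changes of 8.04, 7.76 and 8.5 against VSMC, ISMC and TSMC (SE 0.08, adjusted p at most 7.77e-14). Defb19, a beta-defensin made in the male reproductive tract (chr2:152576086-152580312, minus strand), had 207, 308 and 171 FPKM in Sertoli libraries, against 0 to 0.13 FPKM in the 9 smooth muscle libraries. Cst12, a cystatin-type protease inhibitor of Sertoli cells (chr2:148789361-148793437, plus strand), had 114, 187 and 94.7 FPKM in Sertoli libraries, against 0 to 0.10 FPKM in the 9 smooth muscle libraries. Both were listed at or near 0 outside Sertoli libraries, and replicate 2 was the highest of the Sertoli values for each. Inha, the alpha subunit of inhibin, the Sertoli hormone that restrains pituitary follicle-stimulating hormone, had 35.9, 70.5 and 37.2 FPKM in Sertoli libraries, against 0.80 to 1.55 FPKM in the 9 smooth muscle libraries. Inha gave log2 fold changes of 4.47, 4.41 and 4.33 against VSMC, ISMC and TSMC (SE 0.21, adjusted p at most 9.39e-09). Gatm, the first enzyme of creatine synthesis, had 100.2, 148 and 87.8 FPKM in Sertoli libraries, against 2.48 to 4.90 FPKM in the 9 smooth muscle libraries. Gatm gave log2 fold changes of 4.91, 4.71 and 4.33 against VSMC, ISMC and TSMC (SE 0.15, adjusted p at most 4.67e-10). Shbg, the androgen-binding protein of the tubule, was listed at 0 in all 9 smooth muscle libraries and had 6.11, 4.78 and 5.24 FPKM in Sertoli libraries.

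In several secreted products Sertoli replicate 2 lay far above the other Sertoli libraries. Of those given next, only Dhh lost calls without it. Trf, transferrin, which carries iron to germ cells, had 2.80, 24.5 and 6.78 FPKM in Sertoli libraries, against 0.39 to 0.56 FPKM in VSMC, 3.73 to 4.83 FPKM in ISMC and 3.55 to 4.41 FPKM in TSMC. Only its difference from VSMC passed the test, and without Sertoli replicate 2 its log2 fold changes were 1.87, 0.02 and 0.16 against VSMC, ISMC and TSMC. Ptgds, prostaglandin D synthase, had 5.17, 40.5 and 9.33 FPKM in Sertoli libraries, against 0 to 0.33 FPKM in the 9 smooth muscle libraries, and replicate 2 was more than 4 times either other Sertoli library. Ptgds gave log2 fold changes of 3.62, 3.59 and 3.70 against VSMC, ISMC and TSMC (SE 0.51, adjusted p at most 6.02e-05), and 2.83, 2.80 and 2.91 without Sertoli replicate 2. Dhh, the hedgehog ligand that Sertoli cells send to Leydig and peritubular myoid cells, had 3.0, 9.91 and 3.92 FPKM in Sertoli libraries, against 1.36 to 1.79 FPKM in VSMC, 1.78 to 1.94 FPKM in ISMC and 0.90 to 1.02 FPKM in TSMC. Dhh gave log2 fold changes of 1.24, 1.07 and 1.60 against VSMC, ISMC and TSMC (SE 0.28, adjusted p at most 0.00424), and 0.81, 0.64 and 1.17 without Sertoli replicate 2, which ends its call against VSMC and ISMC. Ctsl, the protease cathepsin L, met the fold threshold in no comparison, with 376, 848 and 390.1 FPKM in Sertoli libraries, against 276 to 296 FPKM in VSMC, 285 to 296 FPKM in ISMC and 336 to 360.4 FPKM in TSMC.

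Transcription factors of Sertoli and gonadal cells were high in the Sertoli libraries and mostly near 0 in smooth muscle. Of 16 listed factors 14 were tested and 8 rose against all 3 groups (57.1%, beside 9.28% of all tested genes). Of the tested members 8 reached 1 FPKM only in Sertoli libraries. The summed FPKM of the 16 factors was 238 to 293 in Sertoli libraries. It was 198 to 325 in the peritubular myoid libraries of the series and 189 to 232 in its Leydig libraries. The sum thus did not set Sertoli apart from peritubular myoid libraries. Gata4, a zinc finger factor of gonadal and heart development (chr14:63198914-63245271, minus strand), had 70.2, 90.4 and 69.7 FPKM in the Sertoli libraries, against 0.03, 0.01 and 0 FPKM in VSMC, 0.07, 0.10 and 0.09 FPKM in ISMC and 0.82, 0.76 and 0.84 FPKM in TSMC. TSMC libraries, below 1 FPKM, were nevertheless the highest of the smooth muscle values. Gata4 gave log2 fold changes of 6.25, 6.15 and 5.42 against VSMC, ISMC and TSMC (SE 0.09, adjusted p at most 1.41e-12). Nr5a1, steroidogenic factor 1, the nuclear receptor that switches on gonadal and adrenal genes (chr2:38692656-38714542, minus strand), had 50.1, 44.4 and 44.9 FPKM in Sertoli libraries, against 0 to 0.09 FPKM in the 9 smooth muscle libraries. Nr5a1 gave log2 fold changes of 5.54, 5.55 and 5.48 against VSMC, ISMC and TSMC (SE 0.06, adjusted p at most 1.54e-13). Wt1, the Wilms tumour factor needed for Sertoli identity (chr2:105126529-105173614, plus strand), had 16.7, 54.4 and 20.4 FPKM in Sertoli libraries, against 0 to 0.67 FPKM in the 9 smooth muscle libraries. Replicate 2 was more than 2 times the other Sertoli libraries, and even the lowest Sertoli value lay far above all smooth muscle libraries. Wt1 gave log2 fold changes of 4.78, 4.09 and 4.5 against VSMC, ISMC and TSMC (SE 0.31, adjusted p at most 3.79e-07). Some factors kept the groups apart without meeting the fold threshold. Zfpm2, the Gata4 cofactor, was lowest in the Sertoli libraries, with 2.36, 1.81 and 2.05 FPKM in Sertoli libraries, against 4.93 to 5.13 FPKM in VSMC, 4.44 to 4.67 FPKM in ISMC and 3.99 to 4.36 FPKM in TSMC. Etv5, which Sertoli cells need for niche function, was highest there, with 14.7, 15.1 and 14.5 FPKM in Sertoli libraries, against 6.98 to 7.41 FPKM in VSMC, 6.84 to 7.54 FPKM in ISMC and 9.85 to 9.99 FPKM in TSMC.

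Junction genes went both ways. Of 18 listed genes 14 were tested. Against all 3 groups 5 rose (35.7%) and 2 fell (14.3%), beside 9.28% and 6.33% of all tested genes. Of the tested members 2 reached 1 FPKM only in Sertoli and 1 only in smooth muscle. Cldn11, the claudin of Sertoli tight junctions (chr3:31149920-31164326, plus strand), had 129, 233 and 110.2 FPKM in the Sertoli libraries, against 0, 0.08 and 0.05 FPKM in VSMC, 0.03, 0 and 0.03 FPKM in ISMC and 0.05, 0.11 and 0.03 FPKM in TSMC. No smooth muscle library exceeded 0.11 FPKM, and replicate 2 was the highest Sertoli library. Cldn11 gave log2 fold changes of 7.17, 7.2 and 7.14 against VSMC, ISMC and TSMC (SE 0.21, adjusted p at most 1.11e-10). The junctional adhesion molecule Jam2 had 46.1, 107 and 48.7 FPKM in Sertoli libraries, against 17.7 to 19.9 FPKM in VSMC, 16.3 to 17.4 FPKM in ISMC and 7.59 to 8.76 FPKM in TSMC. Its relative F11r had 52.1, 128 and 53.5 FPKM in Sertoli libraries, against 23 to 23.8 FPKM in VSMC, 21 to 22.5 FPKM in ISMC and 11.5 to 12.3 FPKM in TSMC. Both were higher in every Sertoli library than in any smooth muscle library and rose against all 3 groups. Espn, espin, which bundles actin at the ectoplasmic specialization, had 11.2, 35.5 and 12.8 FPKM in Sertoli libraries, against 0.24 to 0.32 FPKM in VSMC, 0.37 to 0.55 FPKM in ISMC and 0.79 to 1.38 FPKM in TSMC. Espn gave log2 fold changes of 3.84, 3.65 and 3.18 against VSMC, ISMC and TSMC (SE 0.32, adjusted p at most 3.37e-06). On the lower side stood Gja1, the gap junction protein connexin 43 (chr10:56377300-56390419, plus strand), with 2.52, 2.43 and 2.22 FPKM in the Sertoli libraries, against 34.7, 33.8 and 35.1 FPKM in VSMC, 33.5, 34.8 and 30.6 FPKM in ISMC and 19.6, 19.3 and 18.7 FPKM in TSMC. Its 3 Sertoli libraries lay close together and below all smooth muscle libraries. Gja1 gave log2 fold changes of -3.39, -3.32 and -2.58 against VSMC, ISMC and TSMC (SE 0.06, adjusted p at most 1.13e-11). The other member that fell was Cldn1, another claudin, with 0.08, 0.05 and 0.02 FPKM in Sertoli libraries, against 1.07 to 1.45 FPKM in the 9 smooth muscle libraries, and its call against ISMC was lost with quantile-normalized values or without Sertoli replicate 3. The scaffold protein Tjp1 met the fold threshold in no comparison, with 13.6, 17.4 and 14.1 FPKM in Sertoli libraries, against 19.0 to 20.4 FPKM in VSMC, 16.6 to 19.3 FPKM in ISMC and 22.9 to 27.1 FPKM in TSMC.

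Several genes that handle vitamin A rose. Of 14 listed retinoid genes 12 were tested. Against all 3 groups 4 rose (33.3%) and 1 fell (8.33%), beside 9.28% and 6.33% of all tested genes. Of the tested members 2 reached 1 FPKM only in Sertoli and 1 only in smooth muscle. Aldh1a1, a retinaldehyde dehydrogenase that makes retinoic acid (chr19:20601982-20643462, plus strand), had 492, 639 and 464 FPKM in the Sertoli libraries, against 20.8, 20.2 and 22.2 FPKM in VSMC, 32.4, 32.6 and 32.1 FPKM in ISMC and 16.1, 16.0 and 15.8 FPKM in TSMC. ISMC was the highest smooth muscle group, and Sertoli levels were more than 10 times higher still. Aldh1a1 gave log2 fold changes of 4.58, 3.98 and 4.96 against VSMC, ISMC and TSMC (SE 0.10, adjusted p at most 2.64e-11). Rbp4, the plasma retinol carrier, and Stra6, its membrane receptor, also rose, with 13.9, 61.3 and 20.1 FPKM and 3.11, 6.71 and 3.93 FPKM in Sertoli libraries and under 1 FPKM in smooth muscle. Crabp2, which delivers retinoic acid to its nuclear receptors, fell, with 0.73, 1.11 and 0.67 FPKM in Sertoli libraries, against 4.57 to 6.72 FPKM in VSMC, 3.25 to 4.86 FPKM in ISMC and 10.1 to 11 FPKM in TSMC. Aldh1a2, the related enzyme, was called only against TSMC, where it was lower in Sertoli, with 2.51, 6.98 and 3.48 FPKM in Sertoli libraries, against 2.26 to 2.58 FPKM in VSMC, 2.74 to 2.94 FPKM in ISMC and 13.9 to 14.9 FPKM in TSMC.

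Receptors for hormones went both ways. Of 16 listed 11 were tested, and 2 rose (18.2%) and 3 fell (27.3%) against all 3 groups, beside 9.28% and 6.33% of all tested genes, with 1 member at 1 FPKM only in Sertoli and 1 only in smooth muscle. Besides Fshr, the orphan nuclear receptor Nr2f2 rose, with 60.9, 37.8 and 58.7 FPKM in Sertoli libraries, against 13.6 to 14.2 FPKM in VSMC, 12.7 to 13.1 FPKM in ISMC and 20.3 to 22.3 FPKM in TSMC. Nr2f2 gave log2 fold changes of 1.82, 1.91 and 1.24 against VSMC, ISMC and TSMC (SE 0.14, adjusted p at most 8.82e-06). Its paralogue Nr2f1 fell, with 0.26, 0.22 and 0.33 FPKM in Sertoli libraries, against 2.30 to 2.5 FPKM in VSMC, 2.58 to 2.77 FPKM in ISMC and 11.5 to 12.3 FPKM in TSMC. Rarg, a retinoic acid receptor, fell, with 11.8, 9.30 and 13.2 FPKM in Sertoli libraries, against 27.4 to 31.0 FPKM in VSMC, 29.1 to 31.6 FPKM in ISMC and 32.1 to 33.8 FPKM in TSMC. Igf1r, the receptor of insulin-like growth factor 1, fell too, with 7.21, 4.99 and 6.8 FPKM in Sertoli libraries, against 17.1 to 18.1 FPKM in VSMC, 16.0 to 18.1 FPKM in ISMC and 15.5 to 16.7 FPKM in TSMC. 

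Signals of the germ cell niche divided between the sides. Of 17 listed genes, all tested, 5 rose (29.4%) and 4 fell (23.5%) against all 3 groups. The shares of all tested genes were 9.28% and 6.33%. Of the members 2 reached 1 FPKM only in Sertoli and 1 only in smooth muscle. Gdnf, the Sertoli growth factor that sustains spermatogonial stem cells (chr15:7810048-7837580, plus strand), had 14.8, 16.0 and 12.2 FPKM in the Sertoli libraries, against 0.44, 0.54 and 0.60 FPKM in VSMC, 3.69, 3.15 and 3.30 FPKM in ISMC and 6.67, 6.52 and 6.07 FPKM in TSMC. The 3 smooth muscle groups were themselves in separate ranges, lowest in VSMC and highest in TSMC, and all lay below Sertoli. Gdnf gave log2 fold changes of 3.32, 1.80 and 1.04 against VSMC, ISMC and TSMC (SE 0.09, adjusted p at most 1.29e-06). These were 3.24, 1.72 and 0.96 without Sertoli replicate 2, which ends its call against TSMC, and that call was also lost under both other scalings, where 4 listed genes rose against all 3 groups. Kitl, the ligand of the Kit receptor on differentiating spermatogonia, had 15.4, 16.7 and 14.9 FPKM in Sertoli libraries, against 1.59 to 2.11 FPKM in VSMC, 2.85 to 3.36 FPKM in ISMC and 3.05 to 3.74 FPKM in TSMC. Kitl gave log2 fold changes of 2.57, 2.01 and 1.94 against VSMC, ISMC and TSMC (SE 0.09, adjusted p at most 4.61e-09). Igf1, a growth factor acting through Igf1r, had 14.9, 17.2 and 14.4 FPKM in Sertoli libraries, against 1.07 to 1.15 FPKM in VSMC, 1.58 to 2.27 FPKM in ISMC and 4.94 to 5.49 FPKM in TSMC. Igf1 gave log2 fold changes of 2.96, 2.5 and 1.40 against VSMC, ISMC and TSMC (SE 0.09, adjusted p at most 9.51e-08). Nrg1, a ligand of ErbB receptors, fell, with 0.89, 0.52 and 0.79 FPKM in Sertoli libraries, against 14.4 to 16.2 FPKM in VSMC, 12.2 to 14.2 FPKM in ISMC and 12.8 to 13.8 FPKM in TSMC. Nrg1 gave log2 fold changes of -3.23, -3.04 and -3.05 against VSMC, ISMC and TSMC (SE 0.09, adjusted p at most 9.6e-11). Tgfb2 fell as well, with 6.74, 5.91 and 7.03 FPKM in Sertoli libraries, against 25.4 to 26.9 FPKM in VSMC, 27.1 to 28.7 FPKM in ISMC and 28.4 to 30.3 FPKM in TSMC. The fall of Cxcl12 and Wnt5a rested on Sertoli replicate 2, and 2 genes fell without it. Cxcl12, the chemokine that holds stem cells in their niche, had 101, 43.2 and 95.3 FPKM in Sertoli libraries, against 168 to 188 FPKM in VSMC, 167 to 173 FPKM in ISMC and 206 to 219.8 FPKM in TSMC, and log2 fold changes of -0.86, -0.78 and -1.11 against VSMC, ISMC and TSMC without Sertoli replicate 2. Wnt5a, a Wnt ligand, had 6.11, 3.42 and 5.86 FPKM in Sertoli libraries, against 11 to 11.6 FPKM in VSMC, 11.5 to 12.4 FPKM in ISMC and 22.1 to 26.4 FPKM in TSMC, and log2 fold changes of -0.81, -0.91 and -1.87 without that library.

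Glycolysis and lactate genes were called more often against VSMC and ISMC than against TSMC. Of 16 listed and tested genes 7 rose against VSMC, 7 against ISMC and 3 against TSMC, with median log2 fold changes of 0.87, 0.83 and 0.15, beside 13.8%, 11.4% and 12% of all tested genes. Without Sertoli replicate 2 these counts were 5, 5 and 3. Against all 3 groups 3 rose (18.8%), beside 9.28% of all tested genes, and 9 were called in no comparison. Ldhb, the lactate dehydrogenase subunit of oxidative tissues, had 111, 301 and 126 FPKM in Sertoli libraries, against 12.7 to 13.3 FPKM in VSMC, 14.9 to 16.1 FPKM in ISMC and 15.4 to 17.7 FPKM in TSMC. Ldhb gave log2 fold changes of 3.54, 3.29 and 3.21 against VSMC, ISMC and TSMC (SE 0.28, adjusted p at most 9.91e-07). Slc16a1, a lactate transporter, had 16.1, 13.2 and 14.9 FPKM in Sertoli libraries, against 5.40 to 6.02 FPKM in VSMC, 5.05 to 5.70 FPKM in ISMC and 4.81 to 5.41 FPKM in TSMC. Slc16a1 gave log2 fold changes of 1.22, 1.29 and 1.37 against VSMC, ISMC and TSMC (SE 0.08, adjusted p at most 7.72e-08). The glucose transporter Slc2a3 was the remaining shared gene, with 3.71, 5.23 and 5.27 FPKM in Sertoli libraries and 0.44 to 1.29 FPKM in smooth muscle. Slc2a1, the main glucose transporter of Sertoli cells, had 71.9, 99.7 and 79.2 FPKM in Sertoli libraries, against 39.1 to 40.2 FPKM in VSMC, 38.5 to 40.9 FPKM in ISMC and 89.4 to 98.4 FPKM in TSMC. It was called higher against VSMC and ISMC with all libraries, but without Sertoli replicate 2 its log2 fold changes were 0.92, 0.92 and -0.29 against VSMC, ISMC and TSMC, which ends both calls, and both were also lost under the other scalings. Ldha, the muscle-type lactate dehydrogenase subunit, met the fold threshold in no comparison, with 613, 869 and 701 FPKM in Sertoli libraries, against 468 to 489 FPKM in VSMC, 489 to 498 FPKM in ISMC and 689 to 741 FPKM in TSMC.

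Many contractile genes were higher in the Sertoli libraries than in any smooth muscle group. Of 28 listed genes 27 were tested and 12 rose against all 3 groups (44.4%, beside 9.28% of all tested genes). None of the tested members depended on Sertoli libraries alone to reach 1 FPKM. Medians of the tested members were 0.99, 0.95 and 1.14 against VSMC, ISMC and TSMC. Without Sertoli replicate 2 the count was 12 with 1 gene exchanged. Tagln, an actin-binding protein of smooth muscle, then gave log2 fold changes of 0.93, 0.85 and 0.95 against VSMC, ISMC and TSMC and lost its calls, and Hspb7, a small heat shock protein of muscle, gave 1.08, 1.12 and 3.13 and was called in all 3 comparisons. With median log-ratio scaling the count was 11, and with quantile-normalized values it was 7 with 1 gene lower. Des, desmin, the intermediate filament protein of muscle (chr1:75360292-75368579, plus strand), had 455, 405 and 473 FPKM in the Sertoli libraries, against 1.10, 1.07 and 0.86 FPKM in VSMC, 4.64, 4.60 and 5.25 FPKM in ISMC and 5.02, 5.65 and 5.07 FPKM in TSMC. VSMC libraries were lowest at about 1 FPKM, and the other smooth muscle groups stayed under 6 FPKM. Des gave log2 fold changes of 7.79, 6.25 and 6.15 against VSMC, ISMC and TSMC (SE 0.08, adjusted p at most 3.24e-13). Mylk, myosin light chain kinase, which starts smooth muscle contraction (chr16:34784950-35002434, plus strand), had 203, 201 and 202 FPKM in the Sertoli libraries, against 9.57, 9.79 and 9.77 FPKM in VSMC, 11.5, 12.1 and 10.5 FPKM in ISMC and 21.4, 21.4 and 19.9 FPKM in TSMC, with nearly equal Sertoli libraries. Mylk gave log2 fold changes of 4.25, 4.04 and 3.21 against VSMC, ISMC and TSMC (SE 0.05, adjusted p at most 1.39e-12). Myh11, smooth muscle myosin heavy chain (chr16:14194527-14291408, minus strand), averaged 221 ± 27.2 FPKM in Sertoli, 43.7 ± 2.69 FPKM in VSMC, 45.7 ± 3.04 FPKM in ISMC and 39.6 ± 3.06 FPKM in TSMC (SD, n = 3 each). Myh11 gave log2 fold changes of 2.31, 2.24 and 2.45 against VSMC, ISMC and TSMC (SE 0.09, adjusted p at most 2.16e-09). Cnn1, calponin 1, which binds actin and slows myosin, averaged 395 ± 70.5 FPKM in Sertoli, 110.3 ± 2.54 FPKM in VSMC, 116 ± 4.35 FPKM in ISMC and 163 ± 0.94 FPKM in TSMC (SD, n = 3 each). Cnn1 gave log2 fold changes of 1.82, 1.75 and 1.26 against VSMC, ISMC and TSMC (SE 0.10, adjusted p at most 3.9e-07), and its call against TSMC was lost with quantile-normalized values. Ppp1r14a, an inhibitor of myosin phosphatase, had 245, 211 and 245 FPKM in Sertoli libraries, against 46.0 to 53.4 FPKM in VSMC, 45.6 to 50.5 FPKM in ISMC and 7.94 to 8.35 FPKM in TSMC. Casq2, a calcium-storing protein of the sarcoplasmic reticulum, had 121, 38.3 and 115 FPKM in Sertoli libraries, against 1.77 to 2.06 FPKM in VSMC, 2.18 to 2.46 FPKM in ISMC and 0.38 to 0.48 FPKM in TSMC. For Casq2 replicate 2 was the lowest Sertoli library by a factor of about 3 and still above all smooth muscle libraries. Acta2, smooth muscle alpha actin (chr19:34240336-34255373, minus strand), had 3863, 4762 and 4369 FPKM in the Sertoli libraries, against 2464, 2334 and 2299 FPKM in VSMC, 2367, 2351 and 2493 FPKM in ISMC and 2268, 2189 and 2194 FPKM in TSMC. Every Sertoli library exceeded every smooth muscle library, but the fold threshold was not met. Acta2 gave log2 fold changes of 0.87 against VSMC (adjusted p = 5.02e-07), 0.84 against ISMC (adjusted p = 6.61e-07) and 0.96 against TSMC (adjusted p = 2.21e-07), with an SE of 0.07. Reads of Acta2, Actg2 and Acta1 may be shared between these near-identical actins.

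Cald1, Actn1, Csrp1 and Cnn2, other actin-binding proteins of the list, met the fold threshold in no comparison. Flna and Vcl, which link actin to membranes, lay at the fold threshold against VSMC, with 202, 289.9 and 241 FPKM and 144, 107 and 144 FPKM in Sertoli libraries and log2 fold changes of -1.01 and -1.0. Flna gave log2 fold changes of -1.14, -1.06 and -0.98 against VSMC, ISMC and TSMC without Sertoli replicate 2, which adds a call against ISMC, and Vcl gave -0.86, -0.76 and -0.55, which ends its call against VSMC. Both were also called lower against ISMC under both other scalings. The summed FPKM of the 28 genes was 15951 to 20264 in Sertoli libraries, against 9879 to 10324 FPKM in VSMC, 10160 to 10461 FPKM in ISMC and 9904 to 9955 FPKM in TSMC. The same sum was 7278 to 7971 in the peritubular myoid libraries of the series and 2997 to 4277 in its Leydig libraries, so the Sertoli libraries held the most of these groups.

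Transcription factors of muscle and its organs went both ways in single comparisons. Of 23 listed 18 were tested, and 3 rose and 6 fell against VSMC, 2 and 7 against ISMC and 1 and 7 against TSMC. Of all tested genes 13.8% and 9.16%, 11.4% and 10.1%, and 12% and 9.92% did so. Against all 3 groups 0 of the 18 rose and 2 fell (11.1%), beside 9.28% and 6.33% of all tested genes. With 18 members these counts are not read as a difference from those shares. Of the members 1 reached 1 FPKM only in Sertoli and 5 only in smooth muscle. Tbx18, which marks precursors of mural cells, had 0.97, 0.99 and 0.80 FPKM in Sertoli libraries, against 8.25 to 8.80 FPKM in VSMC, 7.18 to 8.47 FPKM in ISMC and 4.99 to 5.81 FPKM in TSMC. Foxc2, which acts in vessels and mesoderm, had 3.71, 1.34 and 3.10 FPKM in Sertoli libraries, against 28.6 to 31.8 FPKM in VSMC, 27.3 to 30.1 FPKM in ISMC and 13.6 to 15.3 FPKM in TSMC. Srf, serum response factor, met the fold threshold in no comparison, with 37.8, 52.6 and 42.9 FPKM in Sertoli libraries, against 27.7 to 29.1 FPKM in VSMC, 27.3 to 28.0 FPKM in ISMC and 32.3 to 33.8 FPKM in TSMC. Myocd, its smooth muscle cofactor myocardin, had 1.60, 1.23 and 1.59 FPKM in Sertoli libraries, against 0.45 to 0.57 FPKM in VSMC, 0.45 to 0.53 FPKM in ISMC and 0.05 to 0.06 FPKM in TSMC. Myocd gave log2 fold changes of 0.72 against VSMC (adjusted p = 4.48e-06), 0.73 against ISMC (adjusted p = 3.77e-06) and 1.22 against TSMC (adjusted p = 5.23e-08), with an SE of 0.07. Foxf1, a factor of gut and lung mesenchyme, fell against TSMC alone, with 1.03, 1.16 and 1.14 FPKM in Sertoli libraries, against 0.31 to 0.44 FPKM in VSMC, 1.57 to 2.10 FPKM in ISMC and 28.4 to 30.6 FPKM in TSMC. The tracheal and stomach factor Barx1 had 0.04, 0 and 0.04 FPKM in Sertoli libraries, against 0 FPKM in VSMC, 0.38 to 0.45 FPKM in ISMC and 8.86 to 10.3 FPKM in TSMC.

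Genes that interferon switches on formed the most uniform group. Of 23 listed genes of interferon response and antigen presentation 22 were tested and 20 rose against all 3 groups, beside 9.28% of all tested genes, and only 4 tested members reached 1 FPKM in Sertoli libraries alone. The count was 20 without Sertoli replicate 2 and under both other scalings. Median log2 fold changes were 3.41, 3.25 and 3.29 against VSMC, ISMC and TSMC. The summed FPKM of the 23 genes was 6532 to 7764 in Sertoli libraries and 679 to 934 in smooth muscle. It was 4497 to 8596 in the peritubular myoid libraries of the series and 6252 to 11640 in its Leydig libraries. The high level was thus not particular to Sertoli cells among these testicular groups. Type I interferon acts through a complex with Stat2 and Irf9, which binds a repeat of GAAA in target promoters. In 250 bases before the start of each gene (RefSeq, GRCm38.p6), the motif GAAANNGAAA, searched on both strands with overlaps counted, was in 936 of 27025 promoters (3.46%), 301 of 9607 tested genes with a promoter (3.13%), 59 of 858 genes that rose against all 3 groups (6.88%) and 19 of 551 that fell (3.45%). Of the listed genes that rose, 16 had a promoter entry and 7 held the motif, B2m, Bst2, Ifit1, Ifit3, Isg15, Rsad2 and Stat2. A match describes the letters only. The promoters of 4 genes with 2 or more matches are shown 5′ to 3′ on the gene's strand, with the matches in capitals, for Isg15 (chr4:156200819-156201068, minus strand), Ifit1 (chr19:34640639-34640888, plus strand), Ifit3 (chr19:34583279-34583528, plus strand) and Bst2 (chr8:71537473-71537722, minus strand).
Isg15: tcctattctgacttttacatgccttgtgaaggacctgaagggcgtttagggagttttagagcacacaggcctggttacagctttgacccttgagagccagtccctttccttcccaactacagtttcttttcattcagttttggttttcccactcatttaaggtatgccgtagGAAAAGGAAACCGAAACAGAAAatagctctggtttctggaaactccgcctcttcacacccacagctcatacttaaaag
Ifit1: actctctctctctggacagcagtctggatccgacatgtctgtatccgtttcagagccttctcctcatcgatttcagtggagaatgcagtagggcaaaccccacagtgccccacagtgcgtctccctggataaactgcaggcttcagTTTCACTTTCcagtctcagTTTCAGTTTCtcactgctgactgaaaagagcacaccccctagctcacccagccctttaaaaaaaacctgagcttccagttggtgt
Ifit3: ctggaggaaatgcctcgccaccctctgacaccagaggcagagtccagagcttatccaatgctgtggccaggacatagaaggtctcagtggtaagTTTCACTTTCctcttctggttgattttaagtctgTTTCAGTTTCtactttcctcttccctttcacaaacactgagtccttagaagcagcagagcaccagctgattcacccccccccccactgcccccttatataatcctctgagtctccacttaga
Bst2: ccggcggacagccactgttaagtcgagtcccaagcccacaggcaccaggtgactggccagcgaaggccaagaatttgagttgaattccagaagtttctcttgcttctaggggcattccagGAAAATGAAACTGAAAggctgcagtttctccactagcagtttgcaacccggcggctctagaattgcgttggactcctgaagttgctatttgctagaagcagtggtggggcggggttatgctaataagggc

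The 4 genes with these promoters, shown for their matches and not for the size of their changes, all rose against all 3 groups. Isg15, a ubiquitin-like modifier, had 692, 889.9 and 677 FPKM in the Sertoli libraries, against 5.17, 6.37 and 5.87 FPKM in VSMC, 9.36, 9.53 and 8.5 FPKM in ISMC and 5.65, 5.53 and 7.19 FPKM in TSMC. ISMC was slightly above the other smooth muscle groups, and all were under 10 FPKM. Isg15 gave log2 fold changes of 6.78, 6.21 and 6.72 against VSMC, ISMC and TSMC (SE 0.12, adjusted p at most 4.22e-12). Bst2, tetherin, which holds budding viruses at the membrane, had 1195, 1373 and 1146 FPKM in the Sertoli libraries, against 39.2, 44.0 and 36.8 FPKM in VSMC, 52.3, 55.6 and 56.2 FPKM in ISMC and 35.0, 37.1 and 38.5 FPKM in TSMC. Bst2 gave log2 fold changes of 4.92, 4.47 and 5.03 against VSMC, ISMC and TSMC (SE 0.08, adjusted p at most 2.25e-12). Ifit1, a sensor of viral RNA, had 82.5, 84.1 and 72.8 FPKM in Sertoli libraries, against 0.93 to 1.17 FPKM in VSMC, 1.97 to 2.25 FPKM in ISMC and 0.69 to 0.82 FPKM in TSMC. Ifit1 gave log2 fold changes of 5.28, 4.71 and 5.52 against VSMC, ISMC and TSMC (SE 0.07, adjusted p at most 1.04e-12). Ifit3, its partner, had 131, 219 and 123 FPKM in Sertoli libraries, against 4.55 to 5.83 FPKM in VSMC, 11.1 to 11.7 FPKM in ISMC and 5.18 to 5.96 FPKM in TSMC. Ifit3 gave log2 fold changes of 4.60, 3.64 and 4.55 against VSMC, ISMC and TSMC (SE 0.18, adjusted p at most 8.52e-09). In each of these 4 genes the lowest Sertoli library exceeded the highest smooth muscle library, and ISMC was the highest of the smooth muscle groups.

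Irf7, the factor that amplifies type I interferon (chr7:141263183-141266424, minus strand), had 404, 526 and 381 FPKM in the Sertoli libraries, against 1.40, 1.66 and 1.41 FPKM in VSMC, 2.97, 2.85 and 3.10 FPKM in ISMC and 1.81, 1.48 and 2.33 FPKM in TSMC. Irf7 gave log2 fold changes of 7.45, 6.77 and 7.25 against VSMC, ISMC and TSMC (SE 0.13, adjusted p at most 3.46e-12). The signalling factors rose by less, with 50.4, 52.7 and 47.8 FPKM of Stat2 in Sertoli libraries against 4.40 to 6.23 FPKM in smooth muscle, and 40.1, 42.8 and 42.5 against 7.51 to 10.4 FPKM for Irf9. Antigen presentation genes followed. H2-K1, a class I heavy chain whose reads may be shared with H2-D1, had 475, 634 and 435 FPKM in Sertoli libraries, against 13.4 to 13.9 FPKM in VSMC, 26.2 to 30.1 FPKM in ISMC and 11.3 to 14.9 FPKM in TSMC. H2-K1 gave log2 fold changes of 5.13, 4.14 and 5.21 against VSMC, ISMC and TSMC (SE 0.13, adjusted p at most 2.21e-10). B2m, the class I light chain, had 3051, 1780.2 and 2487 FPKM in Sertoli libraries, against 452 to 491 FPKM in VSMC, 565 to 596 FPKM in ISMC and 564 to 598 FPKM in TSMC. B2m gave log2 fold changes of 2.35, 2.03 and 2.05 against VSMC, ISMC and TSMC (SE 0.15, adjusted p at most 2.09e-07), and replicate 2 was the lowest Sertoli library. Psmb8, an immunoproteasome subunit, had 59.95, 132 and 58.0 FPKM in Sertoli libraries, against 0.84 to 1.09 FPKM in VSMC, 2.66 to 3.08 FPKM in ISMC and 0.17 to 0.51 FPKM in TSMC. Psmb8 gave log2 fold changes of 5.29, 4.36 and 5.85 against VSMC, ISMC and TSMC (SE 0.25, adjusted p at most 3.54e-08), and replicate 2 was the highest. Ifit2 and Ifi27 met the fold threshold in no comparison. Ifit2 had 9.42, 12.4 and 9.29 FPKM in Sertoli libraries, against 7.93 to 8.55 FPKM in VSMC, 8.42 to 8.99 FPKM in ISMC and 8.19 to 9.29 FPKM in TSMC. Ifi27 had 109, 82.4 and 113 FPKM in Sertoli libraries, against 83.0 to 92.1 FPKM in VSMC, 89.1 to 97.4 FPKM in ISMC and 83.0 to 105 FPKM in TSMC. Ifi27l2a, a related gene outside the list, named by its rank among the shared genes, had 478, 131 and 441 FPKM in Sertoli libraries, against 0.58 to 0.93 FPKM in VSMC, 0.70 to 2.11 FPKM in ISMC and 0.12 to 0.35 FPKM in TSMC.

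**Figure D3:**
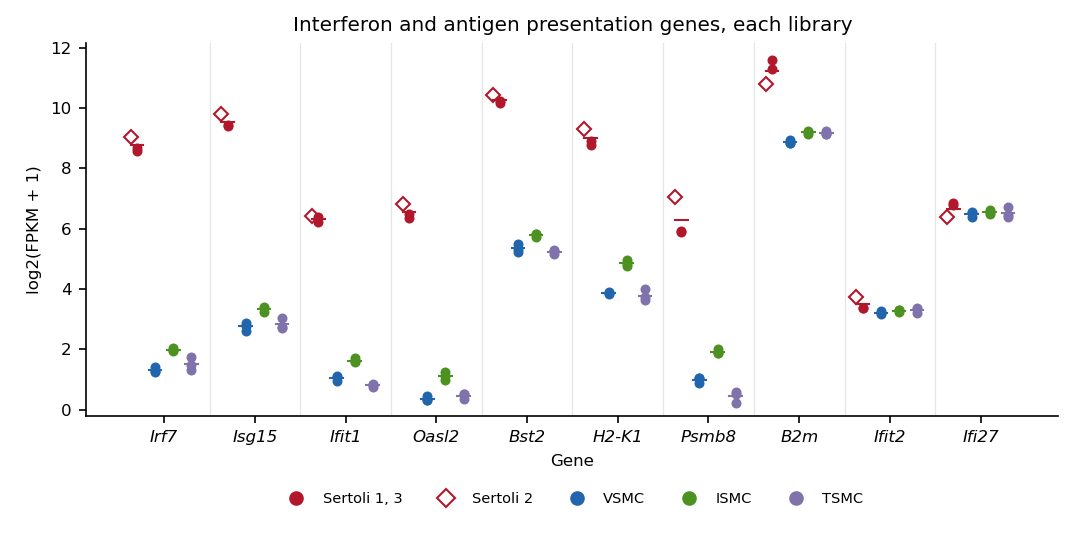
Log2(FPKM + 1) of 10 interferon and antigen presentation genes in each library. Points are libraries, the open diamond is Sertoli replicate 2, and short lines are group means. Irf7 lies at 380.8 to 526.4 FPKM in Sertoli and 1.40 to 3.10 FPKM in smooth muscle. The Sertoli and smooth muscle libraries overlap for Ifi27. For Ifit2 the lowest Sertoli library is level with the highest TSMC library.

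Genes of the interstitial matrix were the main group on the lower side. Of 25 listed and tested genes 15 fell and 1 rose against all 3 groups, beside 6.33% and 9.28% of all tested genes, and medians were -2.11, -1.89 and -1.65 against VSMC, ISMC and TSMC. Without Sertoli replicate 2 the counts were 14 and 1. Fn1, fibronectin, which links cells to collagen (chr1:71585473-71653234, minus strand), had 140.1, 53.1 and 141 FPKM in the Sertoli libraries, against 3827, 4063 and 4082 FPKM in VSMC, 3495, 3488 and 3182 FPKM in ISMC and 2429.6, 2481 and 2316 FPKM in TSMC. Replicate 2 was the lowest Sertoli library, and even the highest lay far below every smooth muscle library. Fn1 gave log2 fold changes of -5.28, -5.04 and -4.55 against VSMC, ISMC and TSMC (SE 0.29, adjusted p at most 6.63e-08), and -4.82, -4.58 and -4.09 without Sertoli replicate 2. Fbln2, fibulin 2, an elastic fibre and basement membrane protein (chr6:91212764-91272540, plus strand), had 49.3, 40.05 and 48.9 FPKM in the Sertoli libraries, against 1411, 1462 and 1347 FPKM in VSMC, 1212, 1237 and 1218 FPKM in ISMC and 1053, 1033 and 1136 FPKM in TSMC. Fbln2 gave log2 fold changes of -4.91, -4.71 and -4.52 against VSMC, ISMC and TSMC (SE 0.07, adjusted p at most 1.41e-12). Postn, periostin, a matricellular protein of fibroblasts and valves (chr3:54361107-54391041, plus strand), had 10.6, 1.71 and 9.10 FPKM in Sertoli libraries, against 187 to 247 FPKM in the 9 smooth muscle libraries. Replicate 2 again lay well below the other Sertoli libraries. Postn gave log2 fold changes of -5.08, -5.17 and -4.81 against VSMC, ISMC and TSMC (SE 0.41, adjusted p at most 8.41e-07).

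The collagens were split by chain. Col1a1 and Col1a2, the chains of type I collagen, had 648, 369.8 and 608 FPKM and 709, 329 and 643 FPKM in Sertoli libraries, against 1330.4 to 1855 FPKM and 1156 to 1638 FPKM in smooth muscle. Col1a1 gave log2 fold changes of -1.71, -1.54 and -1.37 against VSMC, ISMC and TSMC (SE 0.16, adjusted p at most 1.5e-05), and -1.45, -1.29 and -1.12 without Sertoli replicate 2. Col1a2 gave log2 fold changes of -1.57, -1.33 and -1.14 against VSMC, ISMC and TSMC (SE 0.22, adjusted p at most 0.000517), and -1.22, -0.99 and -0.80 without that library, which ends its calls against ISMC and TSMC. Col5a1, Col5a2, Col8a1 and Col12a1 fell too, and Col3a1 and the 3 type VI chains were not called in the same direction against all 3 groups. Col6a1, for example, had 61.6, 64.3 and 70.6 FPKM in Sertoli libraries, against 65.9 to 68.6 FPKM in VSMC, 84.6 to 87.4 FPKM in ISMC and 31.1 to 34.4 FPKM in TSMC. Eln, elastin, had 29.9, 8.40 and 31.1 FPKM in Sertoli libraries, against 312 to 474 FPKM in VSMC, 370.2 to 395 FPKM in ISMC and 62.9 to 66.2 FPKM in TSMC. Eln gave log2 fold changes of -4.24, -4.19 and -1.65 against VSMC, ISMC and TSMC (SE 0.37, adjusted p at most 0.00184). Lox, which crosslinks collagen and elastin, had 188, 47.8 and 166 FPKM in Sertoli libraries, against 739 to 774 FPKM in VSMC, 665 to 674 FPKM in ISMC and 833 to 865 FPKM in TSMC. Lox gave log2 fold changes of -2.71, -2.54 and -2.88 against VSMC, ISMC and TSMC (SE 0.38, adjusted p at most 9.37e-05). The gene that rose was Dcn, decorin, a small proteoglycan, with 18.9, 84.8 and 30.8 FPKM in Sertoli libraries, against 2.88 to 3.75 FPKM in VSMC, 9.98 to 11.4 FPKM in ISMC and 9.60 to 10.6 FPKM in TSMC. Dcn gave log2 fold changes of 3.18, 1.72 and 1.76 against VSMC, ISMC and TSMC (SE 0.39, adjusted p at most 0.00174). Tnc, tenascin C, rose against VSMC and ISMC and was lower than TSMC without meeting the fold threshold except with quantile-normalized values, with 131, 138 and 139.9 FPKM in Sertoli libraries, against 36.7 to 42.1 FPKM in VSMC, 49.3 to 53.7 FPKM in ISMC and 229.6 to 242 FPKM in TSMC.

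Basement membrane genes divided by chain without a common direction. Of 20 listed and tested genes 4 rose (20%) and 4 fell (20%) against all 3 groups. The shares of all tested genes were 9.28% and 6.33%. Of the members 4 reached 1 FPKM in Sertoli libraries alone. The genes that rose were the minor type IV collagen chains Col4a3, Col4a4 and Col4a6 and the laminin chain Lama1. Col4a3 (chr1:82586921-82722059, plus strand) had 28.2, 15.6 and 27.1 FPKM in Sertoli libraries, against 0.26 to 0.40 FPKM in the 9 smooth muscle libraries. Col4a3 gave log2 fold changes of 4.12, 4.17 and 4.22 against VSMC, ISMC and TSMC (SE 0.17, adjusted p at most 2.05e-09). Its neighbour Col4a4 had 19.3, 14.0 and 19.4 FPKM in Sertoli libraries, against 0.18 to 0.30 FPKM in the 9 smooth muscle libraries. The common chains Col4a1 and Col4a2 met the fold threshold in no comparison, and Col4a1 had 513, 573 and 565 FPKM in Sertoli libraries, against 303 to 320.4 FPKM in the 9 smooth muscle libraries. Lama5, the main laminin alpha chain of mature vessels and epithelia, fell, with 2.13, 2.11 and 2.67 FPKM in the Sertoli libraries, against 31.0, 36.3 and 34.3 FPKM in VSMC, 32.6, 31.9 and 31.4 FPKM in ISMC and 16.3, 15.7 and 15.4 FPKM in TSMC. Lama5 gave log2 fold changes of -3.40, -3.32 and -2.35 against VSMC, ISMC and TSMC (SE 0.07, adjusted p at most 2.39e-10). Nid1, Nid2 and Col18a1 fell as well, and Nid1, which ties laminin to type IV collagen, had 92.4, 66.2 and 102 FPKM in Sertoli libraries, against 207 to 230.3 FPKM in VSMC, 207 to 223 FPKM in ISMC and 195 to 224 FPKM in TSMC.

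**Figure D4:**
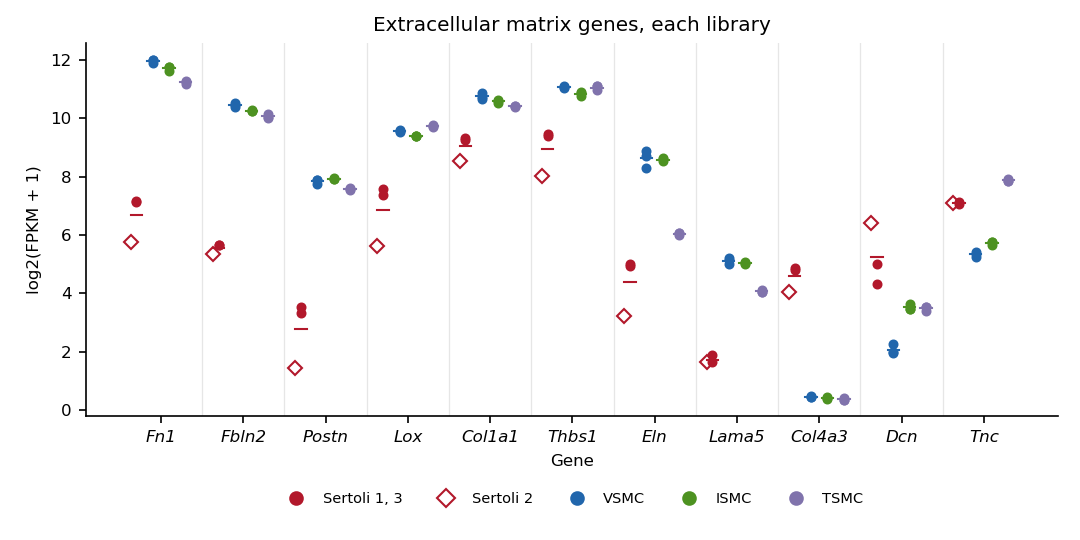
Log2(FPKM + 1) of 11 matrix genes in each library. Points are libraries, the open diamond is Sertoli replicate 2, and short lines are group means. Fn1 lies at 53.1 to 141 FPKM in Sertoli and 2316 to 4082 FPKM in smooth muscle, while Col4a3 and Dcn are higher in Sertoli.

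Hox genes, which record the position of a tissue along the body axis, separated the groups by cluster. Of 39 listed 27 were tested. Against all 3 groups 5 rose (18.5%) and 13 fell (48.1%), beside 9.28% and 6.33% of all tested genes. Of the tested members 4 reached 1 FPKM only in Sertoli libraries and 13 only in smooth muscle libraries, which favours a call in that direction. The 5 genes that rose all belong to the HoxD cluster. Hoxd10 (chr2:74691891-74695106, plus strand) had 18.2, 23.9 and 19.1 FPKM in Sertoli libraries, against 0 to 0.06 FPKM in the 9 smooth muscle libraries. Hoxd10 gave log2 fold changes of 4.37, 4.34 and 4.37 against VSMC, ISMC and TSMC (SE 0.09, adjusted p at most 8.48e-12). Hoxd8 had 28.5, 37.3 and 31.0 FPKM in Sertoli libraries, against 1.30 to 2.10 FPKM in VSMC, 2.19 to 2.52 FPKM in ISMC and 0.03 to 0.21 FPKM in TSMC. Hoxd8 gave log2 fold changes of 3.62, 3.30 and 4.91 against VSMC, ISMC and TSMC (SE 0.12, adjusted p at most 9.34e-10), while its paralogue Hoxb8 fell. Hoxb8 had 0.18, 0.02 and 0.08 FPKM in Sertoli libraries, against 17.2 to 17.8 FPKM in VSMC, 14.5 to 17 FPKM in ISMC and 3.24 to 3.63 FPKM in TSMC. Hoxb8 gave log2 fold changes of -4.07, -3.96 and -2.0 against VSMC, ISMC and TSMC (SE 0.08, adjusted p at most 1.01e-09). The HoxA and HoxB clusters supplied every gene that fell. Hoxa5 (chr6:52201754-52204587, minus strand) had 0.09, 0.03 and 0.11 FPKM in the Sertoli libraries, against 22.2, 21.2 and 20.8 FPKM in VSMC, 18.2, 18.1 and 18.2 FPKM in ISMC and 18.1, 17.6 and 19.7 FPKM in TSMC. No Sertoli library exceeded 0.11 FPKM, and all smooth muscle libraries exceeded 17 FPKM. Hoxa5 gave log2 fold changes of -4.38, -4.15 and -4.18 against VSMC, ISMC and TSMC (SE 0.06, adjusted p at most 4.11e-13).

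The 5 tested HoxC genes rose against TSMC, whereas the genes that rose against VSMC or ISMC were all of the HoxD cluster. Hoxc8 was lower in Sertoli than in VSMC and ISMC and higher than in TSMC, with 10.7, 4.77 and 8.84 FPKM in the Sertoli libraries, against 23.7, 22.4 and 24.0 FPKM in VSMC, 21.2, 22.4 and 20.4 FPKM in ISMC and 0, 0.02 and 0 FPKM in TSMC. Hoxc8 gave log2 fold changes of -1.48 against VSMC (adjusted p = 2.9e-05), -1.36 against ISMC (adjusted p = 6.17e-05) and 3.12 against TSMC (adjusted p = 6.02e-08), with an SE of 0.19. Hoxc6 had 18.1, 8.25 and 15.8 FPKM in Sertoli libraries, against 28.4 to 33.4 FPKM in VSMC, 23.8 to 27.6 FPKM in ISMC and 0.13 to 0.32 FPKM in TSMC, and -0.83, -0.54 and 3.90 as log2 fold changes without Sertoli replicate 2, which ends its call against VSMC. Hoxc4, near equal in Sertoli, VSMC and ISMC, had 5.03, 4.08 and 4.55 FPKM in Sertoli libraries, against 4.92 to 5.79 FPKM in VSMC, 4.79 to 5.47 FPKM in ISMC and 0.21 to 0.47 FPKM in TSMC.

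**Figure D5:**
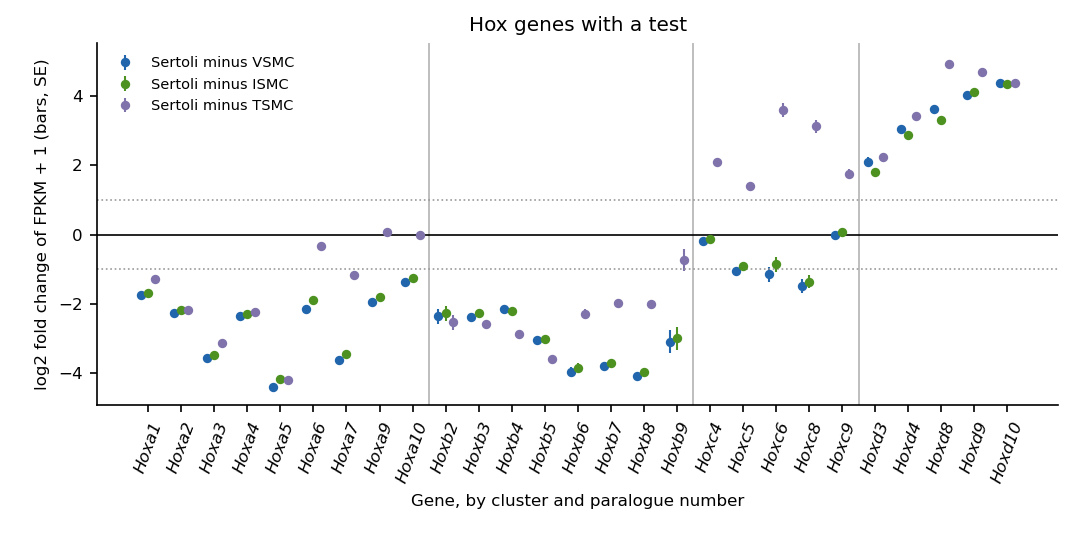
Log2 fold change of FPKM + 1 for the 27 tested Hox genes, ordered by cluster and paralogue number, with bars for the SE. Dotted lines mark the fold threshold of 1 in each direction. HoxD genes lie above 0 in all 3 comparisons, most HoxA and HoxB genes lie below, and HoxC genes lie above 0 against TSMC.

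Cholesterol synthesis and steroid synthesis went in different directions. Of 25 listed genes 21 were tested. Against all 3 groups 6 fell (28.6%) and 3 rose (14.3%), beside 6.33% and 9.28% of all tested genes. Of the tested members 4 reached 1 FPKM only in Sertoli libraries. Under both other scalings 8 fell. The genes that fell included the synthesis enzymes Idi1, Fdps, Sqle and Cyp51. Sqle, squalene epoxidase, had 10.3, 8.17 and 10.4 FPKM in Sertoli libraries, against 45.4 to 45.7 FPKM in VSMC, 40.5 to 42.5 FPKM in ISMC and 31.0 to 34.4 FPKM in TSMC. Sqle gave log2 fold changes of -2.14, -2.0 and -1.65 against VSMC, ISMC and TSMC (SE 0.08, adjusted p at most 6.17e-09). The genes that rose were Star, Cyp11a1 and Hsd3b1. Star, which carries cholesterol into mitochondria (chr8:25808513-25815982, plus strand), had 78.2, 75.2 and 74.0 FPKM in the Sertoli libraries, against 0.34, 0.31 and 0.20 FPKM in VSMC, 0.48, 0.34 and 0.37 FPKM in ISMC and 0.39, 0.29 and 0.49 FPKM in TSMC. Star gave log2 fold changes of 5.90, 5.78 and 5.79 against VSMC, ISMC and TSMC (SE 0.07, adjusted p at most 3.24e-13). Its 3 Sertoli libraries lay close together. Cyp11a1, the side-chain cleavage enzyme, had 7.86, 2.82 and 7.0 FPKM in Sertoli libraries, against 0 to 0.14 FPKM in the 9 smooth muscle libraries. Cyp11a1 gave log2 fold changes of 2.62, 2.52 and 2.61 against VSMC, ISMC and TSMC (SE 0.24, adjusted p at most 2.23e-06). Of 14 Leydig markers 8 were tested and 7 rose against all 3 groups, beside 9.28% of all tested genes. Of the tested ones 6 had 1 FPKM only in Sertoli libraries. Insl3, the Leydig peptide hormone of testis descent, had 7.61, 6.18 and 9.33 FPKM in Sertoli libraries, against 0 to 1.01 FPKM in the 9 smooth muscle libraries. Hsd17b3, the testosterone-forming enzyme of Leydig cells, was listed at 0 in all 3 Sertoli libraries.

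Among the other genes that rose against all 3 groups and met the naming rule, 2 were glutathione transferases, which detoxify reactive compounds. Gstm1, a glutathione transferase (chr3:108012250-108017973, minus strand), had 2952, 2132 and 2589 FPKM in the Sertoli libraries, against 24.4, 26.6 and 23.1 FPKM in VSMC, 27.0, 27.4 and 24.7 FPKM in ISMC and 21.2, 22.5 and 23.2 FPKM in TSMC. Gstm1 gave log2 fold changes of 6.63, 6.53 and 6.77 against VSMC, ISMC and TSMC (SE 0.10, adjusted p at most 1e-12). Reads may be shared with Gstm6 and Gstm7. Gstm7 had 149.6, 122 and 112 FPKM in Sertoli libraries, against 0.81 to 1.65 FPKM in the 9 smooth muscle libraries. Chchd10, a mitochondrial intermembrane space protein (chr10:75935573-75937734, plus strand), had 942, 955 and 823 FPKM in the Sertoli libraries, against 5.55, 5.24 and 2.68 FPKM in VSMC, 4.88, 5.33 and 4.51 FPKM in ISMC and 4.31, 2.98 and 3.92 FPKM in TSMC. Chchd10 gave log2 fold changes of 7.41, 7.26 and 7.59 against VSMC, ISMC and TSMC (SE 0.19, adjusted p at most 5.24e-11). Prss35, a secreted serine protease-like protein (chr9:86743633-86757508, plus strand), had 218, 270.2 and 200.4 FPKM in Sertoli libraries, against 0.26 to 0.54 FPKM in the 9 smooth muscle libraries. Prss35 gave log2 fold changes of 7.44, 7.31 and 7.36 against VSMC, ISMC and TSMC (SE 0.11, adjusted p at most 6.51e-13). Tmem184a, a heparin-binding membrane protein known from Sertoli cells, had 58.3, 155 and 64.7 FPKM in Sertoli libraries, against 0.17 to 0.66 FPKM in the 9 smooth muscle libraries. Tmem184a gave log2 fold changes of 5.70, 5.83 and 6.11 against VSMC, ISMC and TSMC (SE 0.28, adjusted p at most 9.23e-09). Rarres2, the chemoattractant chemerin, had 54.1, 333 and 96.1 FPKM in Sertoli libraries, against 0.42 to 2.09 FPKM in the 9 smooth muscle libraries, and replicate 2 was more than 3 times the other Sertoli libraries. Rarres2 gave log2 fold changes of 6.01, 5.53 and 6.35 against VSMC, ISMC and TSMC (SE 0.49, adjusted p at most 1.2e-06), and 5.28, 4.80 and 5.62 without Sertoli replicate 2. C1s1, a complement protease with a near-identical copy, had 120.1, 111 and 117 FPKM in Sertoli libraries, against 0.68 to 1.63 FPKM in the 9 smooth muscle libraries. C1s1 gave log2 fold changes of 5.95, 5.80 and 5.58 against VSMC, ISMC and TSMC (SE 0.09, adjusted p at most 1.39e-12). Tex19.2, a testis-expressed gene with a close paralogue, had 42.5, 78.0 and 35.8 FPKM in Sertoli libraries, against 0 to 0.03 FPKM in the 9 smooth muscle libraries.

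The genes with the widest gaps on the lower side included a signalling antagonist, a matrix protease and collagens. Grem1, gremlin 1, which traps bone morphogenetic proteins (chr2:113748675-113758648, minus strand), had 0.10, 0.10 and 0.10 FPKM in the Sertoli libraries, against 95.3, 92.1 and 101 FPKM in VSMC, 112, 109 and 98.7 FPKM in ISMC and 487, 489 and 449.5 FPKM in TSMC. TSMC was the highest smooth muscle group, and the Sertoli libraries were all near 0. Grem1 gave log2 fold changes of -6.46, -6.61 and -8.76 against VSMC, ISMC and TSMC (SE 0.06, adjusted p at most 1.95e-14). Tll1, a protease that releases bone morphogenetic proteins and trims procollagen (chr8:64014770-64205993, minus strand), had 0.08, 0.10 and 0.16 FPKM in Sertoli libraries, against 42.2 to 44.9 FPKM in VSMC, 38.0 to 42.2 FPKM in ISMC and 47.2 to 55.6 FPKM in TSMC. Tll1 gave log2 fold changes of -5.32, -5.20 and -5.57 against VSMC, ISMC and TSMC (SE 0.07, adjusted p at most 2.56e-13). S100a4, a calcium-binding protein of motile mesenchymal cells (chr3:90603770-90606045, plus strand), had 55.0, 24.6 and 56.5 FPKM in the Sertoli libraries, against 1708, 1579 and 1714 FPKM in VSMC, 1667, 1686 and 2001 FPKM in ISMC and 1292, 1294 and 1334 FPKM in TSMC. S100a4 gave log2 fold changes of -5.26, -5.35 and -4.91 against VSMC, ISMC and TSMC (SE 0.24, adjusted p at most 9.3e-09). Mrc2, a receptor for collagen uptake, had 2.36, 1.51 and 2.32 FPKM in Sertoli libraries, against 73.2 to 93.6 FPKM in the 9 smooth muscle libraries. Mrc2 gave log2 fold changes of -4.89, -4.65 and -4.83 against VSMC, ISMC and TSMC (SE 0.10, adjusted p at most 9.82e-12). Htr1b, a serotonin receptor, had 0, 0.09 and 0 FPKM in Sertoli libraries, against 19.8 to 27.4 FPKM in the 9 smooth muscle libraries. Angptl2, a secreted angiopoietin-like protein, had 2.35, 2.95 and 2.69 FPKM in Sertoli libraries, against 71.2 to 85.0 FPKM in the 9 smooth muscle libraries. Angptl2 gave log2 fold changes of -4.45, -4.54 and -4.34 against VSMC, ISMC and TSMC (SE 0.06, adjusted p at most 4.33e-13). Sulf1, which edits heparan sulfate, had 2.73, 9.80 and 3.6 FPKM in Sertoli libraries, against 100.3 to 128 FPKM in the 9 smooth muscle libraries. Cdo1, which opens cysteine breakdown, had 0.49, 0.43 and 0.49 FPKM in Sertoli libraries, against 45.2 to 54.5 FPKM in the 9 smooth muscle libraries. Cdo1 gave log2 fold changes of -5.22, -5.17 and -5.01 against VSMC, ISMC and TSMC (SE 0.05, adjusted p at most 4.03e-14). Col14a1, a fibril-associated collagen, had 0.15, 0.12 and 0.09 FPKM in Sertoli libraries, against 42.9 to 44.9 FPKM in VSMC, 49.96 to 52.0 FPKM in ISMC and 18.3 to 19.7 FPKM in TSMC. Col10a1, the collagen of hypertrophic cartilage, had 0.10, 0.05 and 0.10 FPKM in Sertoli libraries, against 12.5 to 18.5 FPKM in VSMC, 17.3 to 18.6 FPKM in ISMC and 125 to 137 FPKM in TSMC. Ccnd1, cyclin D1, fell among the cell cycle genes, with 13, 7.41 and 13.3 FPKM in Sertoli libraries, against 161 to 176 FPKM in VSMC, 173 to 181 FPKM in ISMC and 116 to 127 FPKM in TSMC. Ccnd1 gave log2 fold changes of -3.83, -3.90 and -3.37 against VSMC, ISMC and TSMC (SE 0.16, adjusted p at most 6.32e-09).

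While 12 contractile genes rose, Acta1, the skeletal muscle alpha actin, fell. Acta1 (chr8:123891758-123894775, minus strand) had 0.15, 0.15 and 0.15 FPKM in the Sertoli libraries, against 67.4, 64.0 and 63.1 FPKM in VSMC, 75.6, 74.5 and 77.0 FPKM in ISMC and 294, 282 and 296 FPKM in TSMC. Each Sertoli library was at 0.15 FPKM, and TSMC held about 4 times the level of VSMC and ISMC. Acta1 gave log2 fold changes of -5.84, -6.06 and -7.99 against VSMC, ISMC and TSMC (SE 0.04, adjusted p at most 6.81e-15). Its promoter is shown because serum response factor binds the CArG box, 1 of which lies 64 to 73 bases before the start. The 250 bases are chr8:123894776-123895025, minus strand in RefSeq, GRCm38.p6, with the match in capitals.
Acta1: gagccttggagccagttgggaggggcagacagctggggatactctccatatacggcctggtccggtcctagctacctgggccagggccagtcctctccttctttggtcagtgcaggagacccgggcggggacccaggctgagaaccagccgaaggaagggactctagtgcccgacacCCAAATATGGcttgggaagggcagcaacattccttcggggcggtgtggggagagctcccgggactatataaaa
The CArG box was in 439 of 27025 promoters (1.62%), in 145 of 9607 tested genes with a promoter (1.51%) and in 3 of the 22 tested contractile genes with one, Cnn2, Myl9 and Vcl. These 3 are not among the 12 that rose, of which only 8 had a promoter entry.

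Cell cycle genes differed little. Of 24 listed and tested genes 3 rose (Cdk1, Mcm6 and Pcna) and 2 fell (Ccnd1 and Cdkn2a) against all 3 groups, and 15 were called in no comparison. The shares that rose and fell were 12.5% and 8.33%, beside 9.28% and 6.33% of all tested genes. The 3 that rose rested on Sertoli replicate 2 and on the scaling. Under both other scalings each of them missed the fold threshold in at least 1 comparison. Without Sertoli replicate 2 the log2 fold changes were 0.92, 0.83 and 1.02 for Cdk1, 1.01, 0.90 and 1.18 for Mcm6 and 1.08, 0.94 and 0.92 for Pcna, against VSMC, ISMC and TSMC in that order, so each missed it in at least 1 comparison there too. With all libraries Pcna, the sliding clamp of DNA replication, gave log2 fold changes of 1.27, 1.12 and 1.11 against VSMC, ISMC and TSMC (SE 0.12, adjusted p at most 8.8e-06). Cdkn2a, which encodes a cell cycle inhibitor that accumulates in culture, had 7.94, 1.85 and 5.81 FPKM in Sertoli libraries, against 61.2 to 66.9 FPKM in VSMC, 65.6 to 70.4 FPKM in ISMC and 60.3 to 64.1 FPKM in TSMC.

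Markers of other cell types differed in how often they were called. Of 14 Leydig markers 8 were tested, and 7 rose against all 3 groups (87.5%, beside 9.28% of all tested genes), 6 of the tested members reaching 1 FPKM only in Sertoli libraries. In the lists that follow, counts against all 3 groups stand beside 9.28% higher and 6.33% lower among all tested genes. The endothelial, neural, striated muscle, keratin and germ cell counts are small and are not read as a difference from those shares. Of 14 macrophage markers 12 were tested. Of these, 9 fell against VSMC, 11 fell against ISMC and 3 rose against TSMC, beside 9.16%, 10.1% and 12% of all tested genes. Without Sertoli replicate 2 these counts were 10, 11 and 2. Lyz2, the lysozyme of macrophages, had 1.41, 12.6 and 2.61 FPKM in Sertoli libraries, against 189 to 214 FPKM in VSMC, 382 to 542 FPKM in ISMC and 3.54 to 4.64 FPKM in TSMC. Of 13 endothelial markers 12 were tested, and 1 rose (Ramp2) and 2 fell (Flt1 and Emcn) against all 3 groups. Emcn, endomucin, had 3.09, 5.77 and 3.89 FPKM in Sertoli libraries, against 119 to 135 FPKM in VSMC, 119 to 128 FPKM in ISMC and 13.4 to 15.1 FPKM in TSMC. Of 15 fibroblast markers 13 were tested, and 2 rose (Pdgfra and Dcn, 15.4%) and 4 fell (Mfap5, Thy1, Col14a1 and Gsn, 30.8%, beside 6.33% of all tested genes), with 4 at 1 FPKM only in smooth muscle. Pdgfra, a receptor of mesenchymal cells, had 19.7, 24.2 and 20.8 FPKM in Sertoli libraries, against 0.99 to 1.18 FPKM in VSMC, 1.19 to 1.40 FPKM in ISMC and 3.85 to 4.15 FPKM in TSMC. Of 10 neural and glial markers 8 were tested, and 1 rose (Tubb3) and 1 fell (S100b). Of 16 striated muscle markers 6 were tested, and 2 rose (Tnnt1 and Tnni1) and 1 fell (Acta1). Tnni1 gave log2 fold changes of 0.97, 1.03 and 0.96 against VSMC, ISMC and TSMC without Sertoli replicate 2 and lost its calls against VSMC and TSMC, while Tnnt2 was called higher against all 3 groups. Of 14 keratin and mesothelial genes 9 were tested, and Wt1 rose and Krt19 fell. Of 16 germ cell markers 3 were tested and 1 rose, Prm2, a protamine that packs sperm DNA, with 2.05, 1.54 and 4.01 FPKM in Sertoli libraries, against 0.17 to 0.94 FPKM in the 9 smooth muscle libraries. Its calls against VSMC and ISMC were lost without Sertoli replicate 3. The other tested germ cell markers were Kit and Gfra1, and the rest of the list stayed below the filter. Of the list 1 gene fell against ISMC and 1 against TSMC, beside 10.1% and 9.92% of all tested genes. Without Sertoli replicate 2 these counts were the same. Gfra1 then gave log2 fold changes of -0.60, -1.61 and -2.83 against VSMC, ISMC and TSMC.

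Some genes were called against 1 smooth muscle group alone with all libraries. Against exactly 1 group 445 genes were higher and 486 lower in Sertoli, and against exactly 2 these counts were 339 and 367. That a difference passed in 1 comparison does not show that it was larger there, and the differences between comparisons were not tested. Against VSMC alone, Agrn, agrin, a basement membrane proteoglycan, was higher, with 24.3, 27.1 and 24.5 FPKM in Sertoli libraries, against 6.52 to 7.54 FPKM in VSMC, 22.5 to 25.2 FPKM in ISMC and 39.2 to 40.6 FPKM in TSMC. Cadm1, a cell adhesion molecule, was also higher there, with 7.73, 25.1 and 8.98 FPKM in Sertoli libraries, against 0.68 to 0.89 FPKM in VSMC, 5.72 to 6.39 FPKM in ISMC and 8.17 to 9.22 FPKM in TSMC. With Sertoli replicate 2, its highest library, left out, Cadm1 gave log2 fold changes of 2.41, 0.39 and -0.03 against VSMC, ISMC and TSMC, and without replicate 1 or 3 it was called against ISMC too. Slit3, a guidance ligand, was lower against VSMC with all libraries, with 14.5, 26.8 and 18.1 FPKM in Sertoli libraries, against 41.3 to 45.0 FPKM in VSMC, 35.8 to 37.9 FPKM in ISMC and 13.9 to 14.2 FPKM in TSMC. Slit3 gave log2 fold changes of -1.36, -1.14 and 0.20 without Sertoli replicate 2 and was called against ISMC too, as under both other scalings, and without replicate 1 its call against VSMC was lost. Against ISMC alone, Marco, a macrophage scavenger receptor, was lower, with 0, 0.05 and 0 FPKM in Sertoli libraries, against 0.89 to 1.10 FPKM in VSMC, 19.7 to 22 FPKM in ISMC and 0.03 to 0.10 FPKM in TSMC. Cd68, a macrophage lysosomal protein, was lower too, with 3.07, 9.99 and 4.87 FPKM in Sertoli libraries, against 10.5 to 11.5 FPKM in VSMC, 18.9 to 21.9 FPKM in ISMC and 4.72 to 5.42 FPKM in TSMC. Cd68 gave log2 fold changes of -1.30, -2.12 and -0.33 without Sertoli replicate 2 and was called lower against VSMC as well, and both Marco and Cd68 were called against VSMC under both other scalings. The macrophage sums given above, which include Cd68 but not Marco, were also highest in ISMC. The part of macrophages in these 2 genes was not tested. Nup37, a nuclear pore protein, was called higher against ISMC alone with near-equal values in all 3 comparisons, namely log2 fold changes of 0.94 against VSMC (adjusted p = 9.82e-08), 1.01 against ISMC (adjusted p = 5.93e-08) and 0.89 against TSMC (adjusted p = 1.66e-07), with an SE of 0.06, and the call was lost under both other scalings. Against TSMC alone, Tnnt2, cardiac troponin T, was higher, with 66.0, 6.79 and 86.3 FPKM in Sertoli libraries, against 11.1 to 12.1 FPKM in VSMC, 11.2 to 12.2 FPKM in ISMC and 5.79 to 6.33 FPKM in TSMC, replicate 2 lying far below the other Sertoli libraries. Without it Tnnt2 gave log2 fold changes of 2.59, 2.60 and 3.46 against VSMC, ISMC and TSMC. Igfbp5, a binding protein of insulin-like growth factors, was lower against TSMC, with 0.31, 2.24 and 0.68 FPKM in Sertoli libraries, against 0.88 to 1.27 FPKM in VSMC, 1.87 to 2.74 FPKM in ISMC and 30.3 to 31.1 FPKM in TSMC. Igfbp5 gave log2 fold changes of -0.52, -1.15 and -4.42 without Sertoli replicate 2 and was called lower against ISMC as well. Moxd1, a monooxygenase-like protein, had 0.05, 0 and 0.09 FPKM in Sertoli libraries, against 0.18 to 0.24 FPKM in VSMC, 0.99 to 1.13 FPKM in ISMC and 10.6 to 11.2 FPKM in TSMC.

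Opposite calls in different comparisons occurred for 25 genes. Sfrp2, a secreted Wnt antagonist, was lower in Sertoli than in VSMC and ISMC and higher than in TSMC, with 5.73, 1.54 and 5.20 FPKM in the Sertoli libraries, against 45.5, 49.0 and 44.6 FPKM in VSMC, 45.3, 50.2 and 41.1 FPKM in ISMC and 0.26, 0.28 and 0.21 FPKM in TSMC. Sfrp2 gave log2 fold changes of -3.32 against VSMC (adjusted p = 8.28e-07), -3.29 against ISMC (adjusted p = 9.38e-07) and 1.92 against TSMC (adjusted p = 7.88e-05), with an SE of 0.28. Esm1, an endothelial proteoglycan, had the same pattern, with 7.33, 2.23 and 7.57 FPKM in Sertoli libraries, against 21.1 to 25.4 FPKM in VSMC, 20.1 to 22.4 FPKM in ISMC and 1.04 to 1.21 FPKM in TSMC. Esm1 gave log2 fold changes of -1.94 against VSMC (adjusted p = 8.61e-05), -1.86 against ISMC (adjusted p = 0.000124) and 1.52 against TSMC (adjusted p = 0.000586), with an SE of 0.29. Gpm6b, a neural membrane glycoprotein, rose against VSMC and fell against TSMC, with 2.58, 5.46 and 2.38 FPKM in Sertoli libraries, against 0.57 to 0.63 FPKM in VSMC, 7.23 to 7.83 FPKM in ISMC and 17.3 to 20.4 FPKM in TSMC. Gpm6b gave log2 fold changes of 1.12, -1.29 and -2.54 without Sertoli replicate 2 and was called lower against ISMC too, as under both other scalings. Mmp3, a matrix protease, was called higher than in VSMC and lower than in TSMC, with 0.26, 10.9 and 1.55 FPKM in Sertoli libraries, against 0.11 to 0.31 FPKM in VSMC, 1.48 to 1.66 FPKM in ISMC and 8.80 to 9.20 FPKM in TSMC. Replicate 2 was far above the other Sertoli libraries, and without replicate 2 the log2 fold changes were 0.57, -0.52 and -2.47 against VSMC, ISMC and TSMC, which ends the call against VSMC.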

How the data were processed

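RNA of 12 untreated libraries (3 each of Sertoli cells, VSMC, ISMC and TSMC) was analysed from the FPKM values that the authors deposited per library. The submitters' processing notes name the build mm10 and the tools HISAT2 (2.0.4), Bowtie2 (version 2.2.5) and RSEM (version 1.2.12), whose roles are not given in the sources used here. No read counts were used, so depth was inferred from FPKM steps and no count test was run. The table had 22135 rows, 27 symbols turned into dates by a spreadsheet were restored, and 2850 rows without FPKM values were left out, which left 19285 genes. Values were taken as log2(FPKM + 1), which understates changes of low genes. A limma 3.58.1 model with 4 group means (R 4.3.3, 8 residual degrees of freedom before moderation) was fitted to the 12001 genes with at least 1 FPKM in 3 libraries, and p-values were adjusted by Benjamini-Hochberg over all of them. The fit was also run on simulated data in which all groups shared a common spread for each gene. That run does not cover the wider spread of the Sertoli libraries. Genes named outside the lists were the 20 in each direction ranked by the smallest of their 3 fold changes, among genes that were called in all 3 comparisons, did not overlap and had a mean of at least 10 FPKM in the higher group or groups, plus up to 5 in each direction called in 1 comparison alone and 6 with opposite calls. The genes and lists were chosen with earlier results of these data known. Alternatives were another pseudocount, filter, scaling, variance model, set of libraries and a replicate block, and leaving out each library. Promoters came from RefSeq for GRCm38.p6. One gene can share reads with close relatives (Cst12 and Cst9, for example), and such values are uncertain. Some genes of the lists and of the naming rule are not reported here.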

Additional observations from a re-analysis of the deposited data

How the results depend on the processing

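The pseudocount was the setting that changed the counts most. With a pseudocount of 5 in place of 1, 845 genes were higher and 521 lower in Sertoli against VSMC, 725 and 545 against ISMC, 780 and 573 against TSMC, and 615 and 336 against all 3 groups. This follows from its construction, since a larger pseudocount shrinks fold changes of low genes. With a pseudocount of 0.1 the shared counts were 1404 and 1080, without the filter 1155 and 760, with a filter of 5 FPKM 834 and 646, with quantile-normalized values 893 and 886, with median log-ratio scaling 937 and 871, with a variance for each group 1114 and 759, with all 21 libraries in the fit 1115 and 759, and with 2 groups in each fit 1104 and 754. Leaving out each library in turn gave 1586 to 1732 higher and 1080 to 1125 lower genes against VSMC, 1315 to 1445 and 1203 to 1270 against ISMC, 1370 to 1527 and 1167 to 1221 against TSMC, and 1076 to 1205 and 746 to 768 against all 3 groups. With the replicate number as a block the counts were 1656 and 1099, 1371 and 1211, 1439 and 1190, and 1113 and 760. Same-numbered Sertoli and smooth muscle libraries had correlations of their deviations from -0.0715 to 0.0569, so the numbers were not taken as pairs. Over 398 named genes and all alternatives, 25313 of 26061 fold changes kept their direction and side of the threshold, 364 lost a call, 255 gained one and 129 values without a call moved. No called fold change changed sign. Over 23 lists, 2901 of 3036 counts stayed within 1.5 times the main count.

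The median SD of log2(FPKM + 1) across genes was 0.156 over the 3 Sertoli libraries, replicate 2 included, against 0.057 to 0.0625 in smooth muscle. Genes under about 1 FPKM rest on few reads, and their fold changes are compressed by the pseudocount. The cause of the gap between replicate 2 and the other Sertoli libraries was not tested, and neither the source of the cells nor the tissue can be told apart from the group.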

Other observations

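H60a, a ligand of the activating receptor NKG2D on natural killer cells, fell against all 3 groups, with 0.05, 0.29 and 0.15 FPKM in Sertoli libraries, against 21.4 to 36.4 FPKM in the 9 smooth muscle libraries. All 12 libraries carry the same strain label.

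Replicate 3 of the Sertoli cells tended to lie between replicates 1 and 2. Among the 508 tested genes in which replicate 2 was more than 1 log2 unit from both others, it was highest in 315 and lowest in 193. In 443 of them replicate 3 lay between the other libraries, and its median place was 10.2% of the way from replicate 1 to replicate 2. These values are given as a description.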
